A study of Mus musculus with 4 samples.

Results

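The 10 genes described here encode 7 ligands of the epidermal growth factor (EGF) family (Areg, Ereg, Hbegf, Tgfa, Btc, Epgn and Nrg1) and 3 ErbB receptors (Egfr, Erbb2 and Erbb3). They were taken by name from the 17630 genes listed for each library, and all 10 were found.

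EGF family ligands are made as membrane-anchored precursors and are released by cell surface proteases, after which they bind ErbB receptors on the same or neighbouring cells. Bound receptors pair, and their kinase domains start the ERK, PI3 kinase and STAT cascades. In the mammary gland, amphiregulin released from the epithelium drives duct growth at puberty through EGFR in the stroma, and neuregulin from basal cells signals to luminal cells.

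The study asked how the sympathetic nervous system acts on the mammary basal layer and its stem cells. RNA was sequenced from freshly sorted basal cells and from colonies that basal cells had formed in Matrigel, which is a basement membrane gel. The labels give all 4 libraries as wild-type mouse (WT) primary mammary basal cells and give no age. The groups were untreated sorted cells (control basal cells), sorted cells of mice injected subcutaneously with the sympathetic neurotoxin 6-hydroxydopamine (6-OHDA basal cells), untreated colonies (control colonies), and colonies treated with the adrenergic agonists salbutamol and phenylephrine (SP colonies). The SP library is labelled 200 without a unit, and its control 0. No label calls the latter a colony library, and it was taken as the control colonies from its paired title and the design text, so each control colony value rests on that reading. EGF itself was a component of the colony medium with and without SP. Each group had 1 library and there were no replicates, so no test was made and each difference below lies between 2 libraries. Levels are the FPKM values that the authors deposited (fragments per kilobase of transcript, scaled to the size of the library), which can be compared between genes. Differences are differences of log2(FPKM + 1), which understate the change of low genes. They were computed for genes whose FPKM averaged 1 or more in the pair compared, and a gene was counted as higher or lower when its difference was over 0.3 in size.

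The files hold no read counts. From the steps between low FPKM values, between 16.7 and 18.1 fragments correspond to 1 FPKM per kilobase, if fragments were 250 bases long. The steps fitted whole multiples with scores between 0.43 and 0.459, where 1 would be a perfect fit, so the depth is known only roughly and no interval is given for single genes.

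The basal label was checked against 13 basal markers, all of which were above 0 in the 4 libraries. Krt14, the basal keratin, reached 3595 FPKM in control basal cells, 2633 in 6-OHDA basal cells, 3298 in control colonies and 6920 in SP colonies. Myh11, a smooth muscle myosin of basal cells, was at 467 and 449 FPKM in the sorted libraries and at 11.2 and 21.4 FPKM in the colonies. Transcripts of other cell types were also present. Pecam1 encodes CD31, which was used to remove endothelial cells in the sort, and stood at 107 FPKM in control basal cells and 93.0 in 6-OHDA basal cells.

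In the SP colonies, 5 of the 10 genes were higher than in the control colonies and 0 were lower. All 5 were ligands: Epgn, Nrg1, Areg, Ereg and Hbegf. Over all 11849 genes tested, 11.7% were higher and 19.8% were lower. The median difference of the 7 ligands was 1.01, against -0.07 over all genes tested. At a threshold of 1, 4 of the 10 genes were higher, against 2.0% of all genes, and 0 were lower, against 1.33%. Ereg, at 1.01, was both the median ligand and the lowest of these 4. Its difference was 0.64 at a pseudocount of 5 and 0.98 after rescaling to the same sum, both under 1.

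In 6-OHDA basal cells, 3 genes were higher than in control basal cells (Btc, Nrg1 and Ereg) and 1 was lower (Hbegf). Over the 11749 genes tested, 15.8% were higher and 8.35% were lower. The median difference of the 10 genes was 0.09 and that of all genes was 0.06. At a threshold of 1, 0 of the 10 genes were counted, against 1.05% of all genes that were higher and 0.902% that were lower.

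Between the control libraries, 6 of the 10 genes were lower in the colonies than in the sorted cells, all of them ligands, and 3 were higher (Btc, Erbb2 and Erbb3). Differences were common in this comparison, where 55.7% of 12244 genes were higher and 26.6% were lower. At a threshold of 1, 5 of the 10 genes were lower, against 13.2% of all genes, and 2 were higher, against 30.7%. The median difference of all genes was 0.45, and that of the ligands was -1.32. Culture, the EGF of the medium, the time outside the animal and the recent enzyme digestion and sorting of the sorted cells cannot be told apart here. The levels in sorted cells may thus differ from those in the gland. This comparison shares a control library with each of the others, so a low or high value in such a library enters both.

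**Figure D1:**
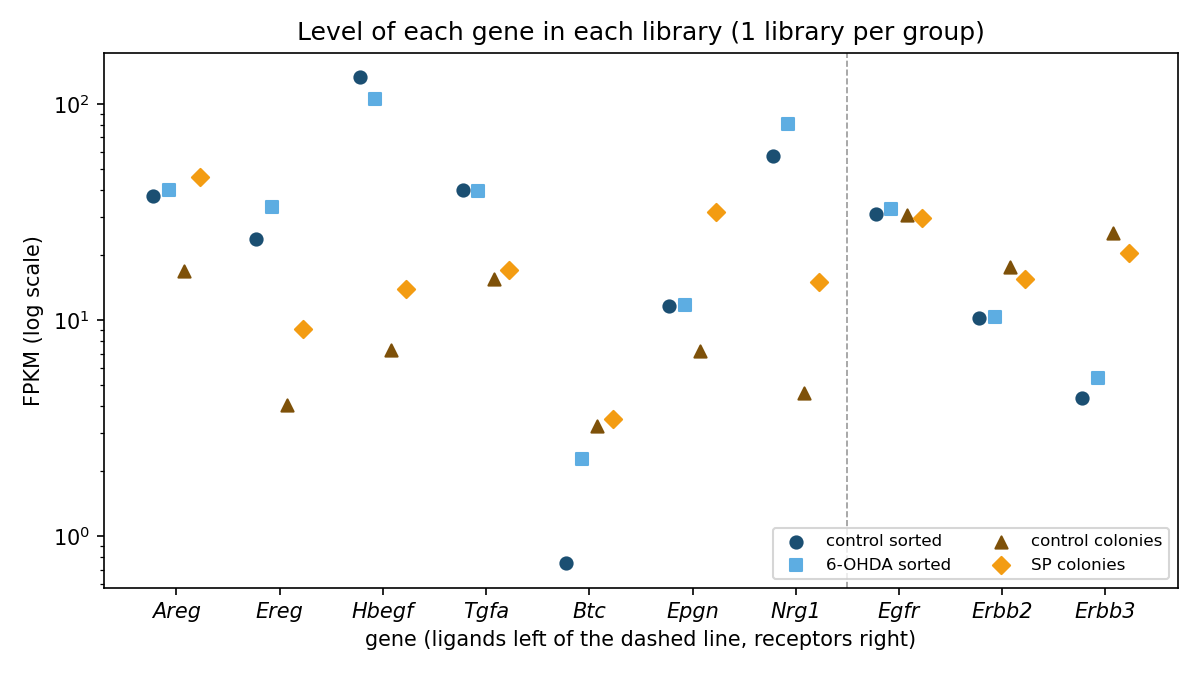
FPKM of the 7 ligands and 3 receptors on a log axis, with 1 point for each of the 4 libraries. Hbegf, Nrg1, Ereg and Tgfa lie higher in both sorted libraries than in both colony libraries, and Btc, Erbb2 and Erbb3 lie lower.

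Areg encodes amphiregulin, a ligand of EGFR. Its level was 37.3 FPKM in control basal cells, 39.9 in 6-OHDA basal cells, 16.9 in control colonies and 46.2 in SP colonies. The control colonies were thus the lowest and the SP colonies the highest of the 4 libraries. The SP colonies exceeded their control 2.73-fold, a log2 difference of 1.40, and 118 of the 11849 genes tested had a larger positive difference. In bulk samples such as these, fewer cells that express a gene and less of its RNA per cell cannot be told apart.

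Epgn encodes epigen, another EGFR ligand, which was at 11.6 FPKM in control basal cells, 11.7 in 6-OHDA basal cells, 7.21 in control colonies and 31.8 in SP colonies. The sorted libraries differed by 0.01 on the log2 scale. In the SP colonies Epgn exceeded its control level 4.41-fold, a log2 difference of 2.0, which only 54 genes surpassed. Its level there was also above that of both sorted libraries.

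Tgfa encodes transforming growth factor α, the third ligand that binds EGFR alone. Its levels were 40.0 FPKM in control basal cells, 39.7 in 6-OHDA basal cells, 15.4 in control colonies and 17.0 in SP colonies. It was lower in control colonies than in control basal cells by a log2 difference of -1.32. Within the sorted cells (-0.01) and within the colonies (0.13) it was not past the threshold.

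Hbegf encodes heparin-binding EGF, which binds EGFR and ErbB4. It was the most abundant of the 10 genes in both sorted libraries, at 133 FPKM in control basal cells and 105 in 6-OHDA basal cells. In the colonies it was at 7.31 FPKM without SP and 13.9 with SP. The difference between the control libraries was -4.01, and 118 of 12244 genes had a more negative difference. Within the sorted cells Hbegf was lower with 6-OHDA (-0.33), and within the colonies it was higher with SP (0.84). The 6-OHDA difference was close to the threshold, and 821 of 11749 genes had a more negative one. Of the 10 genes, Hbegf alone was past the threshold in opposite directions with 6-OHDA and with SP. How often this held among all genes was not counted.

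Ereg encodes epiregulin, which also binds EGFR and ErbB4. It was at 23.8 FPKM in control basal cells, 33.5 in 6-OHDA basal cells, 4.04 in control colonies and 9.13 in SP colonies. The treated library had the higher level in each pair, by 0.48 in the sorted cells and by 1.01 in the colonies. SP colonies remained below both sorted libraries.

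Btc encodes betacellulin, with the same receptors. It was the lowest of the 10 genes in each library, at 0.75 FPKM in control basal cells, 2.28 in 6-OHDA basal cells, 3.24 in control colonies and 3.50 in SP colonies. Its difference with 6-OHDA was 0.91, but its control level was under 1 FPKM, and it entered that comparison only through its level in the 6-OHDA library. At a pseudocount of 5 the difference was 0.34. Btc was the sole ligand that was higher in control colonies than in control basal cells, by 1.28. It entered this comparison too only through its higher library, the difference was 0.52 at a pseudocount of 5, and with a mean FPKM of at least 5 it was not tested.

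Nrg1 encodes neuregulin 1, the ligand of ErbB3 and ErbB4. It was at 57.4 FPKM in control basal cells, 80.6 in 6-OHDA basal cells, 4.60 in control colonies and 15.0 in SP colonies. The 6-OHDA library exceeded its control 1.40-fold (log2 difference 0.48), and the SP colonies exceeded theirs 3.27-fold (1.52). The control colonies lay below the control basal cells by a log2 difference of -3.38.

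The summed FPKM of the 7 ligands was 304 in control basal cells, 313 in 6-OHDA basal cells, 58.8 in control colonies and 137 in SP colonies. Hbegf made up 43.8% of this sum in control basal cells and 33.6% in 6-OHDA basal cells, where the share of Nrg1 was 18.9% and 25.8%. In the colonies Areg had the largest share, at 28.8% without SP and 33.8% with SP. The share of Epgn was 12.3% in control colonies and 23.3% in SP colonies, and that of Tgfa was 26.3% and 12.5%.

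Of the remaining EGF family ligands, Egf, Nrg2 and Nrg4 were in the files. Nrg2, which like Nrg1 binds ErbB3 and ErbB4, was at 3.31 FPKM in control basal cells, 7.87 in 6-OHDA basal cells, 2.37 in control colonies and 1.51 in SP colonies. It was higher with 6-OHDA (1.04), lower with SP (-0.43) and lower in control colonies than in control basal cells (-0.35). Nrg4 lay between 0.62 and 1.09 FPKM, and Egf between 0.09 and 0.39 FPKM, with its highest level in the 6-OHDA library.

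Among the receptors, Egfr, the receptor of EGF and amphiregulin, was at 30.9 FPKM in control basal cells, 32.7 in 6-OHDA basal cells, 30.8 in control colonies and 29.8 in SP colonies. No comparison took it past the threshold as the values were deposited. Relative to the median of all genes, control colonies were lower than control basal cells by a log2 difference of -0.46, and after scaling by the median ratio the difference was -0.50.

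Erbb2 encodes the receptor that binds no ligand and pairs with the others. Its levels were 10.2 FPKM in control basal cells, 10.4 in 6-OHDA basal cells, 17.6 in control colonies and 15.5 in SP colonies. It was higher in control colonies than in control basal cells (0.73), and after scaling by the median ratio this difference was 0.26, under the threshold. The 6-OHDA difference (0.02) and the SP difference (-0.17) were within it.

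Erbb3 encodes a neuregulin receptor with little kinase activity of its own. It was at 4.37 FPKM in control basal cells, 5.39 in 6-OHDA basal cells, 25.2 in control colonies and 20.4 in SP colonies. The control colonies exceeded the control basal cells 5.76-fold, a log2 difference of 2.29. With SP the difference was -0.29, and it passed the threshold at a pseudocount of 0.1 (-0.30) and after rescaling to the same sum (-0.31). Erbb4, the remaining receptor, was listed at 0.14 FPKM or less in the 4 libraries and at 0 in SP colonies.

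The ratio of Erbb3 to Egfr was 0.141 in control basal cells, 0.165 in 6-OHDA basal cells, 0.818 in control colonies and 0.686 in SP colonies. Thus Nrg1 was high and Erbb3 low in the sorted libraries, and the reverse held in the control colonies. In control basal cells the order of levels was Hbegf, Nrg1, Tgfa, Areg, Egfr, Ereg, Epgn, Erbb2, Erbb3 and Btc. In control colonies it began with Egfr, Erbb3 and Erbb2, and in SP colonies with Areg and Epgn. Neighbours in these orders, such as Tgfa and Areg in the sorted libraries, cannot be separated without replicates.

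**Figure D2:**
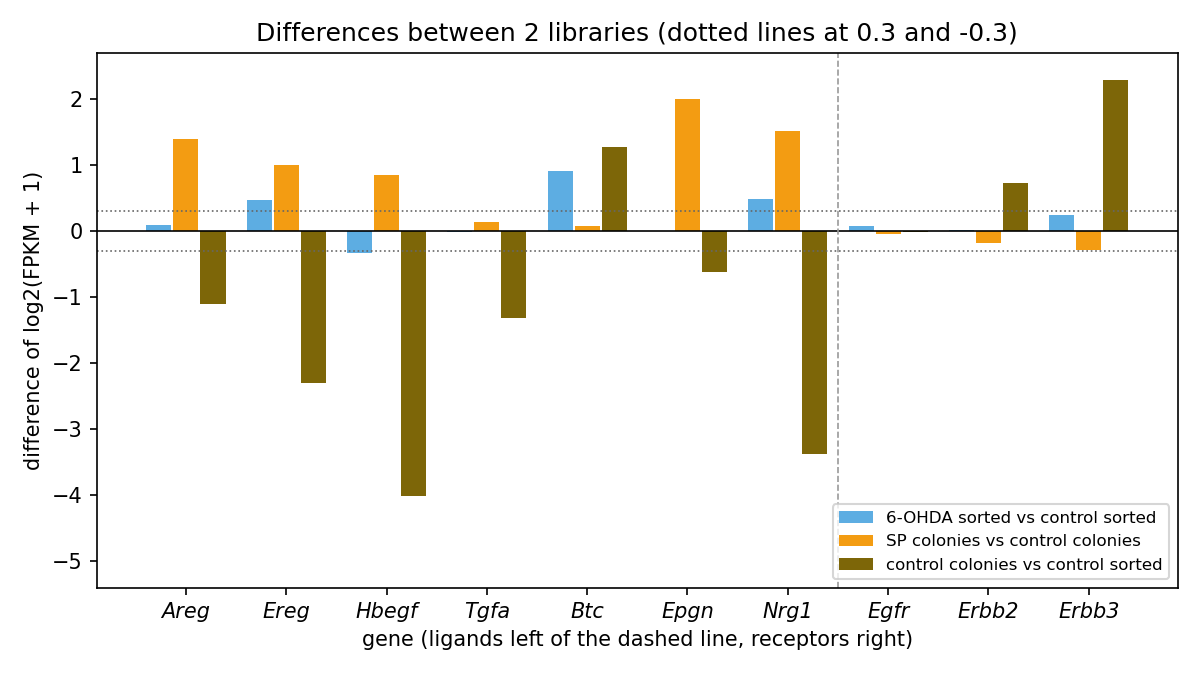
Bars give the difference of log2(FPKM + 1) of each gene in the 3 comparisons, each between 2 libraries, with dotted lines at 0.3 and -0.3. With SP, 5 ligands pass the upper line and none of the 3 receptors passes either line, and between the controls 6 ligands pass the lower line.

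Luminal transcripts differed between the control libraries, as did Erbb2 and Erbb3. Of 15 luminal markers tested, 11 were higher and 1 was lower in control colonies, against 55.7% and 26.6% of all genes. Their differences ran from -2.44 for Ltf to 4.82 for Ly6d, with Krt8 at 0.32 and Gata3 at -0.20. The markers had summed levels of 1228 FPKM in control basal cells, 1096 in 6-OHDA basal cells, 3194 in control colonies and 3069 in SP colonies. Ly6d, the most abundant of them in the colonies, was at 33.6 FPKM in control basal cells and 976 in control colonies, and Elf5, a factor of luminal progenitors, at 0.63 and 22.5 FPKM, so that it was tested only through the colony library. The part of luminal cells in the Erbb3 and Erbb2 differences was not tested. Of the 13 basal markers, 9 were lower and 1 was higher in control colonies.

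Endothelial markers moved with the ligands in the same comparison. The 8 markers summed to 296 FPKM in control basal cells, 295 in 6-OHDA basal cells, 12.1 in control colonies and 3.26 in SP colonies. Pecam1 was the most abundant in the sorted libraries, and Erg in the control colonies. The lower sum with SP was that of Erg, which was at 10.3 FPKM in control colonies and 1.41 in SP colonies, while Pecam1 was at 1.39 and 1.56 FPKM and the other 6 were at 0.12 FPKM or less in both. Cdh5, a junction protein of endothelium, was at 77.9 and 69.4 FPKM in sorted cells and at 0.12 in both colony libraries. All 8 were lower in control colonies, against 26.6% of all genes, and 6 of the 8 were tested only through the sorted library. Their part in the lower ligand levels there was not tested. Within the sorted cells 2 of the 8 were higher with 6-OHDA (Emcn and Tek) and 0 were lower, against 15.8% and 8.35% of all genes. Fibroblast markers (6 of 9 tested), leukocyte markers (4 of 4) and Schwann cell and nerve genes (4 of 4) were also lower in control colonies, and 1 fibroblast marker, Pdgfra, was higher, against 26.6% and 55.7% of all genes. The antibodies of the sort also included CD45, a leukocyte marker. The paper defines basal cells as negative for lineage markers, positive for CD24 and high in CD29. The part of fibroblasts, leukocytes, Schwann cells and nerves in the ligand differences was not tested. Several of these markers, such as Lum, Dpt, Cd79a and Lyz2, were under 1 FPKM in the colonies and were tested only through the sorted library.

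Of 10 fibroblast markers, 7 were higher and 0 were lower with 6-OHDA, against 15.8% and 8.35% of all genes. Fap among the 7 was at 0.78 FPKM in control basal cells and was tested only through its level of 1.70 FPKM in the 6-OHDA library. The 10 fibroblast markers summed to 357 FPKM in control basal cells, 546 in 6-OHDA basal cells, 159 in control colonies and 115 in SP colonies. Pdpn was the most abundant in each, at 47.2%, 28.1%, 72.1% and 87.9% of these sums. The colony sums were thus mostly those of Pdpn, which was within the threshold with 6-OHDA (-0.14). Col3a1, a fibrillar collagen, was at 18.3 and 91.7 FPKM in the sorted libraries. Salivary gland transcripts were also found in the 6-OHDA library. Of 14 salivary gland genes tested, 13 were higher, many of them tested only through that library, and 1, Dmbt1 (-2.13), was lower. Over all genes, 15.8% were higher and 8.35% were lower. Bpifa2, the most abundant salivary gland transcript there, was listed at 0 in control basal cells, 7277 FPKM in 6-OHDA basal cells, 0.08 in control colonies and 0 in SP colonies. Smr3a reached 3086 FPKM and Dcpp1 2733 FPKM with 6-OHDA, and both were listed at 0 elsewhere. Aqp5 of the same list was highest in the control colonies, at 51.3 FPKM. With both libraries rescaled without the salivary gland list, the count of members remained at 3 higher and 1 lower. Of 14 luminal markers tested with 6-OHDA, 5 were lower and 2 were higher, and of 13 basal markers 3 were lower and 1 was higher. The shares that were lower were above the 8.35% of all genes, and those that were higher were near or below their 15.8%. The part of these cell types in the Hbegf, Nrg1, Nrg2, Ereg and Btc differences was not tested. Leukocyte markers summed to 85.8 FPKM in control basal cells, 31.1 in 6-OHDA basal cells, 3.95 in control colonies and 5.04 in SP colonies. The difference within the sorted cells was nearly all that of Cd74, the most abundant, which was at 73.0 FPKM in control basal cells and 19.5 in 6-OHDA basal cells. It was the sole one of 4 leukocyte markers tested that was lower with 6-OHDA, and 0 were higher, while Cd68 of macrophages was at 6.05 and 5.39 FPKM. The pan-leukocyte gene Ptprc was under 1 FPKM in the sorted libraries and at 0 in the colonies.

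Fabp4 made up nearly the whole of the adipocyte list and was its sole gene tested. It was at 210 FPKM in control basal cells, 374 in 6-OHDA basal cells, 34.4 in control colonies and 1.05 in SP colonies. Adipoq, Plin1 and Cidec were instead highest in control colonies, at 1.66, 1.23 and 0.60 FPKM. Lep was highest in control basal cells, at 0.71 FPKM. Of 7 Schwann cell and nerve genes, Sox10 was the most abundant in the sorted libraries, at 50.6 and 61.9 FPKM. Th, the marker enzyme of sympathetic fibres, was at 0 in the control basal library and at 0.04 FPKM in the 6-OHDA library. The part of these cells in the results was not tested.

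In the SP colonies, hypoxia-induced and cornified epidermis genes were higher together with the 5 ligands. These lists, like the other gene lists, were chosen with earlier results of these data known. The shares of all genes beside their counts are therefore no test of them. Of 16 hypoxia-induced genes, 15 were higher and 0 were lower, against 11.7% and 19.8% of all genes, with a median difference of 1.67 against -0.07. They summed to 1351 FPKM in control basal cells, 1314 in 6-OHDA basal cells, 789 in control colonies and 2951 in SP colonies, where Pgk1 was the most abundant. With 6-OHDA, 6 of the 16 were higher and 0 were lower, against 15.8% and 8.35% of all genes: Bnip3 (0.93), Egln3 (0.49), Ankrd37 (0.43), Ero1l (0.43), Adm (0.39) and Egln1 (0.38). Their part in the higher Nrg1, Ereg and Btc levels of that library was not tested. Between the controls, 10 of the 16 were lower and 5 were higher in the colonies, against 26.6% and 55.7% of all genes, with a median difference of -0.83 against 0.45. Vegfa (-4.02), Slc2a1 (-1.95) and Egln3 (-1.89) had the largest differences. The 10 lower hypoxia-induced genes moved there in the same direction as the 6 ligands, and the 5 higher ones did not. The part of hypoxia-induced genes in those ligand differences was not tested. With SP, Ndufa4l2, a mitochondrial protein induced by low oxygen, had the largest difference (5.39), followed by Bnip3 (3.02) and Car9 (2.73). Ndufa4l2 was at 0.72 FPKM in control colonies and was tested in both comparisons with that library only through the other one, at 71.0 FPKM in SP colonies and 4.18 in control basal cells.

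Of 16 cornified genes, 11 were tested with SP and were higher: Krtdap (4.11), Krt16 (3.27), Krt6a (3.07), Sprr1b (2.74), Calm4 (2.57), Dsg1a (2.15), Sbsn (1.55), Sprr2d (1.39), Sprr1a (1.33), Krt1 (1.06) and Krt10 (0.93). Of all genes, 11.7% were higher. Krt1, Sprr2d and Calm4 among them were under 1 FPKM in control colonies and entered only through the SP library, while Lor and Lce1a1, which had lower levels with SP, were not tested. The 16 genes summed to 119 FPKM in either sorted library, 405 in control colonies and 3391 in SP colonies. Krt6a, the most abundant, was at 260 FPKM without SP and 2198 with SP. The defining genes of fully cornified epidermis, Lor and Flg, were at 0.54 FPKM or less in the 4 libraries. Of 7 cornified genes tested with 6-OHDA, Krt1 (1.89), Krt10 (1.21) and Krtdap (0.34) were higher and 0 were lower, against 15.8% and 8.35% of all genes. Krt1 was tested only through the 6-OHDA library, at 0.05 FPKM in control basal cells. Between the controls, Krtdap (3.79), Sbsn (3.33), Krt6a (3.11), Sprr1b (1.94) and Krt10 (1.22) were higher in the colonies and Krt16 (-0.60) was lower, 5 and 1 of 7 tested, against 55.7% and 26.6% of all genes. Sprr1b was listed at 0 in control basal cells and was tested only through the colony library.

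Basal markers also moved with SP, with 8 of 13 higher and 1 lower, against 11.7% and 19.8% of all genes, and summed to 7215 FPKM in control colonies and 15173 in SP colonies. Of 15 luminal markers, 8 were lower and 1 was higher with SP, with a median difference of -0.30. The abundant Krt8 (-0.03), Krt19 (-0.02) and Ly6d (0.12) were within the threshold. Cited1 (-1.45), Foxa1 (-0.80) and Aldh1a3 (-0.71) were lower, and Ltf (2.33) was higher. Of 7 fibroblast markers tested, 5 were lower and 0 were higher. Col3a1 among them, at 2.33 FPKM in control colonies and 0.46 in SP colonies, was tested only through the control library. The shares of luminal and fibroblast markers that were lower were above the 19.8% of all genes. The part of these programs or cell types in the ligand differences was not tested.

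Ligand release depends on proteases of the ADAM family. Of 12 genes for ligand shedding and maturation, 5 were higher and 1 was lower with 6-OHDA, 1 was higher and 2 were lower with SP, and 5 were higher and 5 lower in control colonies against control basal cells. The share higher with 6-OHDA was above the 15.8% of all genes and the share lower with SP near their 19.8%. Between the controls the share higher was below the 55.7% of all genes and the share lower above their 26.6%. Adam17, the main protease for Areg, Tgfa, Ereg and Hbegf, was at 9.19 FPKM in control basal cells, 11.7 in 6-OHDA basal cells, 32.3 in control colonies and 36.4 in SP colonies. It was thus high where those ligands were low between the controls. Adam10, which releases betacellulin and EGF, was at 24.3 and 31.9 FPKM in the sorted libraries and at 69.6 and 70.5 FPKM in the colonies. With 6-OHDA the others counted were Adam12, Adam19 and Rhbdl2, which were higher, and Timp3, an inhibitor of ADAM17, which was lower (-0.46). With SP, the ADAM17 partners Rhbdf1 (-0.37) and Rhbdf2 (-0.50) were lower, and the proprotein convertase gene Pcsk5 (0.47) was higher. Between the controls, Adam12 (2.55), Rhbdl2 (2.03), Adam17 (1.71), Adam10 (1.48) and Timp3 (0.69) were higher in the colonies, and Pcsk5 (-1.26), Adam9 (-0.95), Furin (-0.89), Rhbdf2 (-0.43) and Adam19 (-0.33) were lower.

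Of 13 genes that inhibit or turn over ErbB receptors, 1 was higher and 0 were lower with 6-OHDA, and 2 were higher and 3 were lower with SP. Over all genes, 15.8% were higher with 6-OHDA, and 11.7% were higher and 19.8% lower with SP, so these shares were near or below those of all genes. Between the controls, 4 were higher and 4 were lower in the colonies, where 55.7% of all genes were higher and 26.6% were lower, so that the share higher was below that of all genes and the share lower near it. Lrig3 (2.14), Sh3kbp1 (1.61), Usp8 (0.80) and Cbl (0.36) were higher, and Errfi1 (-3.79), Ptpn1 (-0.89), Socs5 (-0.82) and Ankrd13a (-0.36) were lower. Errfi1, a feedback inhibitor of the EGFR kinase, was at 738 FPKM in control basal cells, 746 in 6-OHDA basal cells, 52.6 in control colonies and 37.6 in SP colonies. It was therefore high in the libraries in which Hbegf was high. Lrig1, which promotes the loss of ErbB receptors from the surface, was at 59.3, 49.3, 55.3 and 31.2 FPKM in the same order and was lower with SP (-0.81), as were Lrig3 (-0.62) and Errfi1 (-0.47). Sh3kbp1 (0.73) and Ankrd13a (0.35), which act in receptor endocytosis, were higher with SP. Socs4 was the gene counted with 6-OHDA (0.33).

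Of 18 adaptor and relay genes, 2 were higher with 6-OHDA (Nck1 and Eps15) and 0 were lower, against 15.8% and 8.35% of all genes. With SP, 0 were higher and 4 were lower: Gab1 (-0.70), Gab2 (-0.58), Eps8 (-0.54) and Plcg1 (-0.44). The share that was lower was near the 19.8% of all genes. Between the controls, 6 were higher and 5 were lower in the colonies, against 55.7% and 26.6% of all genes. Eps15 (1.52), Pik3r1 (1.08), Plcg1 (1.03), Grb7 (0.99), Eps8 (0.82) and Shc1 (0.49) were higher, and Stat3 (-1.0), Stat5a (-0.80), Grb2 (-0.64), Sos1 (-0.42) and Sos2 (-0.36) were lower. Stat3 was the most abundant of them in each library, from 130 FPKM in SP colonies to 306 in control basal cells.

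Of 16 transcripts that EGFR signaling is known to induce, 2 were higher and 4 were lower with 6-OHDA, against 15.8% and 8.35% of all genes. Etv4 (0.50) and Etv5 (0.30) were higher, and Dusp5 (-0.51), Ccnd1 (-0.37), Egr1 (-0.36) and Plaur (-0.31) were lower. With SP, 15 were tested, of which 6 were higher and 1 was lower, against 11.7% and 19.8% of all genes. Vegfa (1.82), Fosl1 (1.44), Plaur (1.07), Ccnd1 (0.75), Myc (0.67) and Phlda1 (0.39) were higher, and the ERK phosphatase gene Dusp6 (-0.34) was lower. The median difference of the 15 genes was -0.04, against -0.07 over all genes. Vegfa is also on the list of hypoxia-induced genes. Between the controls, 12 were lower and 3 were higher in the colonies, against 26.6% and 55.7% of all genes. The largest differences were those of Fosl1 (-6.73), at 240 and 1.27 FPKM, Plaur (-4.85) and Vegfa (-4.02). Spry4 among the 12 was at 0.60 FPKM in control colonies and was tested only through the sorted library. The 3 that were higher were Etv4 (2.28), Ccnd1 (2.06) and Etv5 (1.93), and Dusp4 (-0.19) was within the threshold.

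Genes tied to Areg or Nrg1 in the gland, not all of them upstream, were a further list of 9. Of these, 6 were tested with SP and 7 in each of the other comparisons. With SP, 1 was higher and 3 were lower, against 11.7% and 19.8% of all genes. Trp63, a basal transcription factor that activates Nrg1, was at 42.8 FPKM in control basal cells, 52.6 in 6-OHDA basal cells, 46.5 in control colonies and 80.9 in SP colonies, higher with SP by 0.79. Esr1, the estrogen receptor through which Areg is induced at puberty, was at 2.77, 2.85, 3.62 and 1.87 FPKM and was lower with SP (-0.69), as were Pgr (-0.47) and Fgfr2 (-0.33). With 6-OHDA, Adam17 was the sole gene of this list counted, 1 of 7, where 15.8% of all genes were higher. Between the controls, Adam17 (1.71) and Pgr (1.13) were higher and Fgf7 (-1.20), Fgfr2 (-1.14) and Tbx3 (-0.94) were lower in the colonies, 2 and 3 of 7, where 55.7% of all genes were higher and 26.6% were lower. Fgf7, at 1.83 and 0.23 FPKM, was tested only through the sorted library.

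Profiles over the 4 libraries were compared among 6433 genes that averaged 1 FPKM or more and had a range of at least 1 on the log2 scale. Likeness was the Euclidean distance between profiles of log2(FPKM + 1) centred on their mean, and the 3 nearest genes were taken for 8 members. Egfr and Erbb2 varied too little to be included. The nearest to Areg were Vwa1, the hypoxia-induced P4ha1 and Itpk1, at distances of 0.192, 0.196 and 0.20. Those nearest to Epgn were Il19 and the glycolysis genes Pfkl and Ldha (0.092, 0.184 and 0.289). Ereg was nearest to the contractile genes Acta2 and Myl9 and to Cpxm2 (0.129, 0.273 and 0.308). Hbegf was nearest to Gadd45g, Myc and Egfl7 (0.157, 0.171 and 0.188). Nrg1 had no neighbour as close, with Vegfa, Ramp3 and S1pr3 at 0.485, 0.518 and 0.529. Erbb3 was nearest to Coq7, Fancl and Cant1 (0.012, 0.024 and 0.032). Tgfa was nearest to Trim36, Zfp619 and Kpna1 (0.044, 0.053 and 0.057), and Btc to Aunip, Mrpl1 and Actr6 (0.109, 0.113 and 0.113). For low genes this likeness depends on the pseudocount and is not one of ratios. Trim36 was at 1.85 FPKM in control basal cells and 0.13 in control colonies, where Tgfa was at 40.0 and 15.4. Aunip was at 0.06 and 1.59 FPKM, where Btc was at 0.75 and 3.24. The same limit holds for Zfp619, Il19, Ramp3 and S1pr3, each of which was under 1 FPKM in control colonies.

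Epgn, Ereg, Areg and Btc lie next to each other on chromosome 5, within 375.5 kb (RefSeq, GRCm38.p6). Epgn is at chr5:91027517-91035212, Ereg at chr5:91074617-91093649, Areg at chr5:91139599-91148432 and Btc at chr5:91357261-91402994. The first 3 were higher with SP by 2.0, 1.01 and 1.40, and Btc, the most distant, differed by 0.09. Neighbouring genes that were tested, looked at after these values were seen, differed by less than Ereg. Mthfd2l, which adjoins Epgn, was at 7.56 FPKM in control colonies and 6.81 in SP colonies (-0.13), and Parm1, beyond Btc, at 21.6 and 18.0 FPKM (-0.26). Of the chemokine genes before Mthfd2l, Cxcl5 (0.62) and Cxcl3 (0.53) were higher with SP, Cxcl1 (-0.31) was lower, and Cxcl2 differed by 0.20. Cxcl15 (0.62 FPKM in control colonies and 1.34 in SP colonies), Ppbp (0 and 0.47) and Pf4 (0 in both) averaged under 1 FPKM and were not tested.

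**Figure D3:**
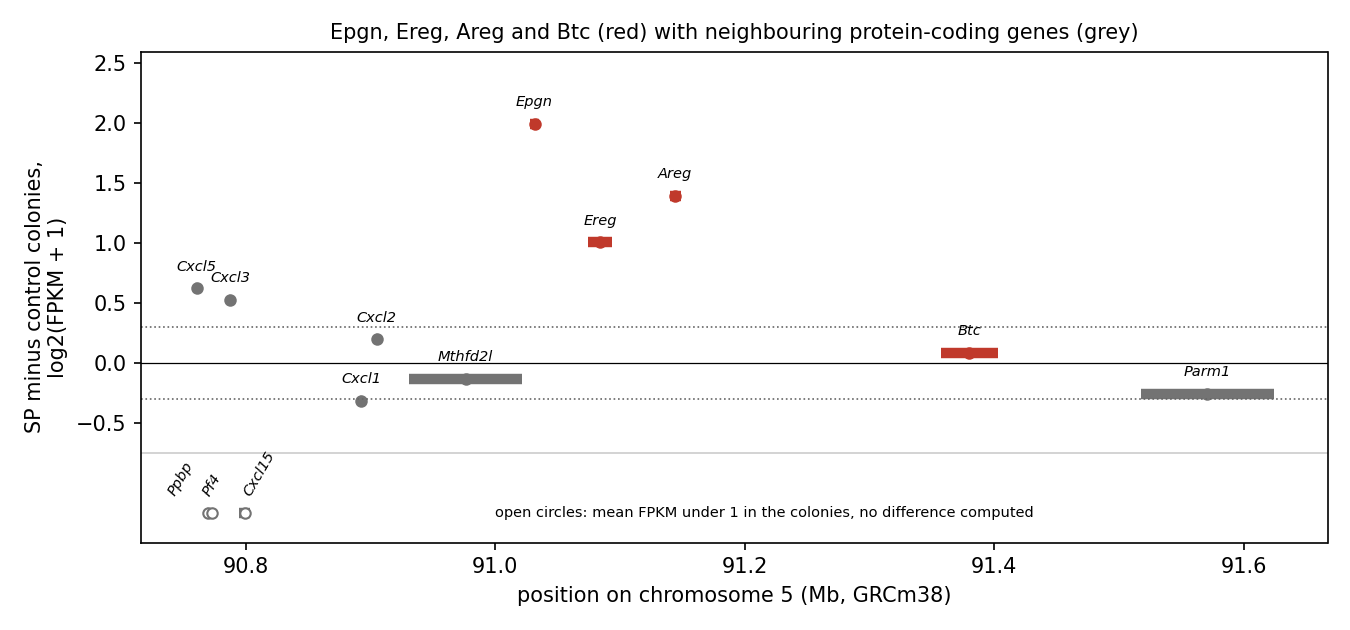
Map of chromosome 5 around Epgn, Ereg, Areg and Btc, with position in Mb (GRCm38) on the horizontal axis and the SP difference of log2(FPKM + 1) on the vertical axis. Bars span each gene, red for the 4 ligands and grey for neighbours, and open circles mark genes with a mean FPKM under 1. Epgn, Areg and Ereg are at 2.0, 1.40 and 1.01, and Btc is at 0.09.

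Promoter windows of RefSeq (GRCm38.p6), from 250 bases before to 50 bases after the gene start, matched 6 of the 10 genes (Areg, Btc, Epgn, Tgfa, Egfr and Erbb2). They were searched on both strands for TGACGTCA, the cAMP response element that binds CREB, for TGANTCA, the AP-1 site, and for ACGTG, the core of the hypoxia response element. Of all 32851 windows, 1.79%, 7.81% and 19.6% held these letters. In the 6 windows the sole match was TGACGTCA before Areg, at chr5:91139538-91139545, from 61 to 54 bases before the start, where it overlapped neither of the other motifs. A match describes the sequence and does not show binding. The sequence before the start is shown for the 3 neighbours on chromosome 5 that have an entry, since Areg and Epgn were higher with SP and Btc was not past the threshold. They are written 5′ to 3′ on the gene's strand, with the match in capitals, and end before the earliest annotated transcript start.
Areg, chr5:91139349-91139598, plus strand: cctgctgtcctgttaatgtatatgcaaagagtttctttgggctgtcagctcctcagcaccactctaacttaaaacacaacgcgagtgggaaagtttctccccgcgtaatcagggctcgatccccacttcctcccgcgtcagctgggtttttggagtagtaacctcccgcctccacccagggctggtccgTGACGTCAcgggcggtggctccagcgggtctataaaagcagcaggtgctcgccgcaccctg
Epgn, chr5:91027267-91027463, plus strand: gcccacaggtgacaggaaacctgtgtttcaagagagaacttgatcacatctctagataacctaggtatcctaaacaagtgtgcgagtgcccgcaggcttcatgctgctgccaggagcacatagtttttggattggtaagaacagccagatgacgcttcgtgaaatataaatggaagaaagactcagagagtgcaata
Btc, chr5:91402995-91403244, minus strand: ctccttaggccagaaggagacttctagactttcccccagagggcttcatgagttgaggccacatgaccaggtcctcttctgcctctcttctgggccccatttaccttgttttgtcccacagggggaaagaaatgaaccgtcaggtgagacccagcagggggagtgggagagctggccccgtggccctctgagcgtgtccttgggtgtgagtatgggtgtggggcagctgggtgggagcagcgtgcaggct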

How the data were processed

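RNA-seq of 4 libraries was analysed, 1 per group. The authors deposited FPKM values with 2 decimals for 17630 genes listed by NCBI Gene number. The submitters' processing notes name Bowtie2, RSEM 1.3.1 and DESeq2 1.4.5 and the genome build mm10, without their roles. The RefSeq table of GRCm38.p6 gave symbols for 17512 genes, and 118 stayed unnamed. Differences of log2(FPKM + 1) were counted past 0.3 in genes whose FPKM averaged 1 or more in the 2 libraries compared. No count model was used, as FPKM values are not counts. The members and gene lists were chosen with earlier results of these data known. Genes named are the members, the other EGF and ErbB genes, list members past the threshold (up to 12, otherwise the 3 with the largest change), the most abundant and defining cell type markers and the 3 nearest profiles of each member. Other markers and neighbours were named after their values were seen. Alternatives were pseudocounts of 0.1 and 5, no filter or a mean FPKM of at least 5, 3 other scalings, rescaling without salivary gland genes, and a threshold of 1. Summed levels of the salivary gland list are not reported here. Python 3.11.15, numpy 2.4.6, pandas 2.3.3 and matplotlib 3.10.9 were used.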

Additional observations from a re-analysis of the deposited data

How the results depend on the processing

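At a threshold of 1 in place of 0.3, the count of members in the 6-OHDA comparison went from 4 to 0, since none of the 4 differences reached 1. At that threshold it was 4 with SP and 7 between the controls. Under the other alternatives the counts ranged from 3 to 4 with 6-OHDA, from 5 to 6 with SP and from 8 to 9 between the controls. Of 226 values of single members under alternatives other than the threshold, 222 kept their side of it. The exceptions were Erbb3 with SP, at a pseudocount of 0.1 and after rescaling to the same sum, and Egfr and Erbb2 between the controls, after median ratio scaling. That scaling moved the median of all genes by -0.45 between the controls, quantile normalization by -0.33 and rescaling to the same sum by -0.16. Among all genes past the threshold, the share that was higher went from 65.4% to 50.5% (median ratio) and 47.4% (quantile) with 6-OHDA, from 37.1% to 49.9% (median ratio) with SP, and from 67.7% to 50.2% and 55.1% between the controls. No paired analysis was possible because each group has 1 library. With 1 library per group the spread between mice or cultures is unknown, and the roughly known depth limits low levels such as that of Btc.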
